A study of Homo sapiens with 33 samples.

Results

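The T-cell receptor complex and its proximal signalling proteins were represented here by 9 genes out of 11963 genes named on the array. They were chosen by gene symbol: CD3D, CD3E, CD3G and CD247, which encode the CD3 and zeta chains, LCK, FYN and ZAP70, which encode kinases, and LAT and LCP2, which encode adaptors. The platform annotation gave them 14 probe sets. Gene expression had been measured on Affymetrix HG-U133A arrays, 33 arrays in 11 groups of 3, in cells of 2 anaplastic large cell lymphoma (ALCL) lines, Su-DHL1 and TS, a subclone of Sup-M2. Each value is a MAS5 signal, a linear measure of how bright a probe set was.

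In 7 groups the cells carried a doxycycline-inducible short hairpin RNA. Su-DHL1 A5 cells, which carry the hairpin A5 against ALK, were given doxycycline for 72 h or left uninduced. TS A5 cells were given doxycycline for 84 h or for 72 h, each with an uninduced group, and TS A5M cells, which carry a mutated form of the hairpin, were given doxycycline for 84 h as a control. No A5M group was analysed here for Su-DHL1 cells or for 72 h. All hairpin cells, uninduced ones included, also carried the repressor vector pLV-DsRed-tTRKRAB and had been sorted for DsRed and GFP before expansion. Doxycycline was used at 1 µg/ml. In the other 4 groups TS cells were treated for 6 h: with A3 or A2 (ALK inhibitors) at 300 nM, with A1 at 300 nM, or with diluent (U). The design text calls A1 a mock compound, while its sample descriptions call it an inhibitor, so A1 is named by its code only. Whether replicates were separate cultures is not stated, so the p-values reflect the spread among these arrays and part of it may be technical. The lines were grown in bulk, and fewer cells with a transcript cannot be told apart from less transcript per cell.

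The T-cell receptor recognises antigen through its alpha and beta chains, which cannot signal by themselves. The CD3 chains and the zeta chain CD247 carry the cytoplasmic tyrosine motifs (ITAMs) that LCK or FYN phosphorylates. ZAP70 then binds the phosphorylated motifs and phosphorylates LAT and LCP2 (SLP-76), a scaffold on which calcium and RAS signalling are assembled. ALCL is a lymphoma of T-cell origin whose tumour cells often lack surface T-cell receptor and CD3, and in ALK-positive cases the kinase ALK is made as a fusion protein.

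ALK itself was lower with the hairpin (probe set 208212_s_at). Its mean signal was 637 ± 12.3 in induced Su-DHL1 cells, against 2966 ± 219 in uninduced Su-DHL1 cells, and in TS cells at 84 h it was 248 ± 44.2 with A5 and doxycycline, 1686 ± 46.5 with A5M and doxycycline and 2039 ± 97.2 in uninduced A5 cells (SD, n = 3 each). The 3′ to 5′ signal ratio of the ACTB control probe sets, a measure of transcript integrity and of labelling length, also differed between the groups. It averaged 1.36 in induced Su-DHL1 cells and 1.39 in uninduced ones. In TS cells it averaged 1.27 with A5 and doxycycline, 1.52 with A5M and doxycycline and 1.54 uninduced at 84 h, and 1.32 induced against 1.59 uninduced at 72 h. With the compounds it averaged 1.06 with A3, 1.05 with A2, 1.33 with A1 and 1.18 with U. The same ratio of the GAPDH control probe sets differed less between the hairpin groups. In TS cells at 84 h it averaged 0.861 with A5 and doxycycline, 0.889 with A5M and 0.867 uninduced. It was 0.826 induced and 0.871 uninduced at 72 h, and 0.863 and 0.875 in Su-DHL1 cells. With the compounds GAPDH averaged 0.939 with A3, 0.894 with A2, 0.978 with A1 and 1.002 with U.

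The label of a T-cell lineage was checked against 12 T-cell markers other than the 9 genes, of which 10 were measured. GATA3 was at or above its array's 40th percentile on all 33 arrays and CD5 on 32, CD8A on 25, CD4 on 24 and CD2 on 18. CD28 and CD7 reached that percentile on 0 of 33 arrays. Among genes of other lineages, FCER1G, the ITAM-bearing gamma chain of Fc receptors, had group means of 1833 to 4791 signal units. TYROBP, another ITAM adaptor, stayed below the percentile on every array, as did the myeloid markers CD14, LYZ and SPI1. ITGAM and CSF1R, of the myeloid list, reached it on 33 arrays and CD22, of the B-cell list, on 32. CSF1R was the only 1 of 3 tested myeloid markers called in the hairpin average. It averaged 261.8 in induced and 97.4 in uninduced Su-DHL1 cells, and in TS cells 346.4 induced and 148.1 uninduced at 84 h, and 490.1 induced and 174.9 uninduced at 72 h. ITGAM averaged 72.1 in induced and 60.8 in uninduced Su-DHL1 cells, and in TS cells 63.8 induced and 59.4 uninduced at 84 h, and 67.6 induced and 66.0 uninduced at 72 h. The summed signal of the 6 myeloid markers measured moved mainly through CSF1R. In Su-DHL1 cells this sum was 351.2 to 386.5 induced and 184.6 to 216.4 uninduced. In TS cells it was 427.9 to 507.6 with A5 and doxycycline, 231.8 to 338.1 with A5M and doxycycline and 211.1 to 277.3 uninduced at 84 h. At 72 h the TS sum was 573.9 to 666.5 induced and 247.5 to 309.3 uninduced. Of the NK-cell and ITAM list, NCR3, an activating receptor, averaged 107.9 in induced and 61.1 in uninduced Su-DHL1 cells. In TS cells NCR3 averaged 322.0 induced, 59.9 with A5M and 77.7 uninduced at 84 h, and 274.5 induced and 60.1 uninduced at 72 h. Of the 5 tested genes of that list 1 was called higher and 0 lower in each of the 3 settings. In Su-DHL1 cells 13.9% of all genes were called higher. Others of the list went both ways in TS cells: KLRD1 averaged 47.2 induced and 33.2 uninduced at 84 h, and 24.9 and 33.1 at 72 h. NCAM1 averaged 61.5 and 72.9 at 84 h, and 71.1 and 46.6 at 72 h. The sum of the 7 measured genes of that list was 4018 to 4297 induced and 3430.0 to 3820.3 uninduced in TS cells at 72 h, without overlap. At 84 h the TS sums overlapped, 4363.7 to 5036.0 induced and 4070.6 to 4747.2 uninduced. In Su-DHL1 cells they did not, 4827.5 to 5264.5 induced and 4252.2 to 4772.9 uninduced. Most of the sum was FCER1G, which averaged 3664.9 induced and 3462.0 uninduced in TS cells at 72 h. The keratin KRT18 averaged 72.0 induced and 25.2 uninduced in TS cells at 84 h. Of its list of epithelial and stromal genes, KRT8 (67.5 and 59.7) and COL1A2 (58.4 and 26.7) averaged higher there too. COL1A1 (103.8 and 122.1) and PECAM1 (64.6 and 71.9) averaged lower, and EPCAM stayed below the percentile on every array. Of the 5 genes of this list tested, 2 were called higher and 0 lower in that comparison. At 72 h 0 were called in either line. The sum of the 10 T-cell markers was lower in induced TS cells at 72 h without overlap, 636.7 to 679.1 against 730.1 to 825.6 uninduced, and at 84 h it was 643.5 to 810.1 induced and 788.1 to 1000.6 uninduced. This sum moved mainly through GATA3, which averaged 256.3 induced and 451.6 uninduced at 84 h, and 235.2 induced and 378.1 uninduced at 72 h. TRBC1, of the same list, averaged 150.6 induced and 86.3 uninduced at 84 h, and 121.2 induced and 63.9 uninduced at 72 h. Of 8 T-cell markers tested 1 was called higher and 1 lower at each time. Of all genes 21.8% were called higher and 18.8% lower at 84 h, and 19% higher and 15.2% lower at 72 h. The part of these movements in the results on FYN and LAT was not tested.

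Promoter sequences from RefSeq (GRCh38.p14, 250 bases before to 50 bases after each start) were given for 7 of the 9 genes, in 14 windows. Those of CD3D, LAT and FYN are shown because these genes changed in a comparison, and those of LCK and CD247 as examples of genes near background that hold an ETS core, a motif bound by ETS factors, which are active in lymphocytes. LCP2, also near background, holds the core too, and ZAP70, also near background, does not. Neither is shown, so the windows shown are not a comparison of changed genes with genes near background. Where a gene has several windows, 1 is shown. The core GGAAGT, searched on both strands (ACTTCC where it lies on the other strand), is in capitals where it occurs.
CD3D (chr11:118342656-118342955, minus strand): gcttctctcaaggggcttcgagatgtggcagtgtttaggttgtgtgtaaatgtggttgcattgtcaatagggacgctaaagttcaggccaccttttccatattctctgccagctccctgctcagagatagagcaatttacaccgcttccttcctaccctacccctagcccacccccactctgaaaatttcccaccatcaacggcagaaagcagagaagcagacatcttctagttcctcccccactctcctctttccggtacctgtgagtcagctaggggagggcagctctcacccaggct
LAT (chr16:28984553-28984852, plus strand): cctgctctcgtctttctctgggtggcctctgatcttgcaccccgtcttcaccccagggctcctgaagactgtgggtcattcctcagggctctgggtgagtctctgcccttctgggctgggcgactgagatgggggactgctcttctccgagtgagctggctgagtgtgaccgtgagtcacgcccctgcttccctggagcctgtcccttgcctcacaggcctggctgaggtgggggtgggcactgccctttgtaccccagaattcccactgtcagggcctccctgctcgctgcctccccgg
FYN (chr6:111873403-111873702, minus strand): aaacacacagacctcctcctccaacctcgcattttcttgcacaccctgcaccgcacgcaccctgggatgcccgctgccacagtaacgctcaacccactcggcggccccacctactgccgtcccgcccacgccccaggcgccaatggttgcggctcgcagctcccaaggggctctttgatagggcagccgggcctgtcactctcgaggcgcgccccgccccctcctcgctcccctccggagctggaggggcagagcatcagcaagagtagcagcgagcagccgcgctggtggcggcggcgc
LCK (chr1:32273871-32274170, plus strand): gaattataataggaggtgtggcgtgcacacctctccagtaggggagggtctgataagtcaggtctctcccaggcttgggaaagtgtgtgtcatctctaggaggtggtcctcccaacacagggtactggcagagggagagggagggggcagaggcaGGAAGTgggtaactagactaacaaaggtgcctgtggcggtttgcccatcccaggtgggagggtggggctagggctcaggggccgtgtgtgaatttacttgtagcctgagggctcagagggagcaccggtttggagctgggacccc
CD247 (chr1:167518480-167518779, minus strand): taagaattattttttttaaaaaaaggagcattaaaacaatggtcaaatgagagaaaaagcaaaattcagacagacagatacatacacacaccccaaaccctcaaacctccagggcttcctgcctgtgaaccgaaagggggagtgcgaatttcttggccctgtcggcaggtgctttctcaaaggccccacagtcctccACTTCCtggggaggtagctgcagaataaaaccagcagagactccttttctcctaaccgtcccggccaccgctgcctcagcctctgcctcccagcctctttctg
The ETS core lay in 4 windows of 3 genes (CD247, LCK and LCP2), against 22.8% of all 35116 windows of this length. It was in none of the windows of CD3D, LAT, FYN or ZAP70. The RUNX letters TGTGGT were in 4 windows (13.1% of all), the palindromic STAT letters TTCNNNGAA in 1 window, that of LCP2 (7.66%), and the palindromic E-box letters CANNTG in 8 windows (68.7%). An ETS core can share letters with a STAT match. Letters that match are a description of the sequence only, and the motifs were chosen after the sequences had been seen.

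The receptor genes fell into a gene with strong signal, a few with low signal and several near background. CD3D, the delta chain, was read at 463.3 to 1416.6 signal units on the 33 arrays. FYN (210105_s_at, 35.4 to 158.5) and CD3E (205456_at, 21.8 to 148.6) were at or above the 40th percentile of their array on 33 and 31 arrays, the percentile itself lying between 33.3 and 44.2. LAT (211005_at) reached it on 22 arrays and CD247 (210031_at) on 6. CD3G, ZAP70, LCK and LCP2 were represented by 6 probe sets. These gave 198 readings, of which 2 reached the percentile, both of CD3G, and the highest was 43.6. ZAP70, both LCK probe sets and both LCP2 probe sets reached the percentile on 0 of 33 arrays. A signal below this percentile does not show that a transcript is absent, and signals of different probe sets have no common scale. Tests were run on genes that reached the percentile on at least 3 arrays of a fit, which left 5 of the 9 genes in the hairpin fit (CD3D, CD3E, CD247, LAT and FYN) and 4 in the compound fit (the same without CD247). CD247 and LAT passed that filter partly through their higher groups, so counts and medians over the tested genes are descriptions.

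**Figure D1:**
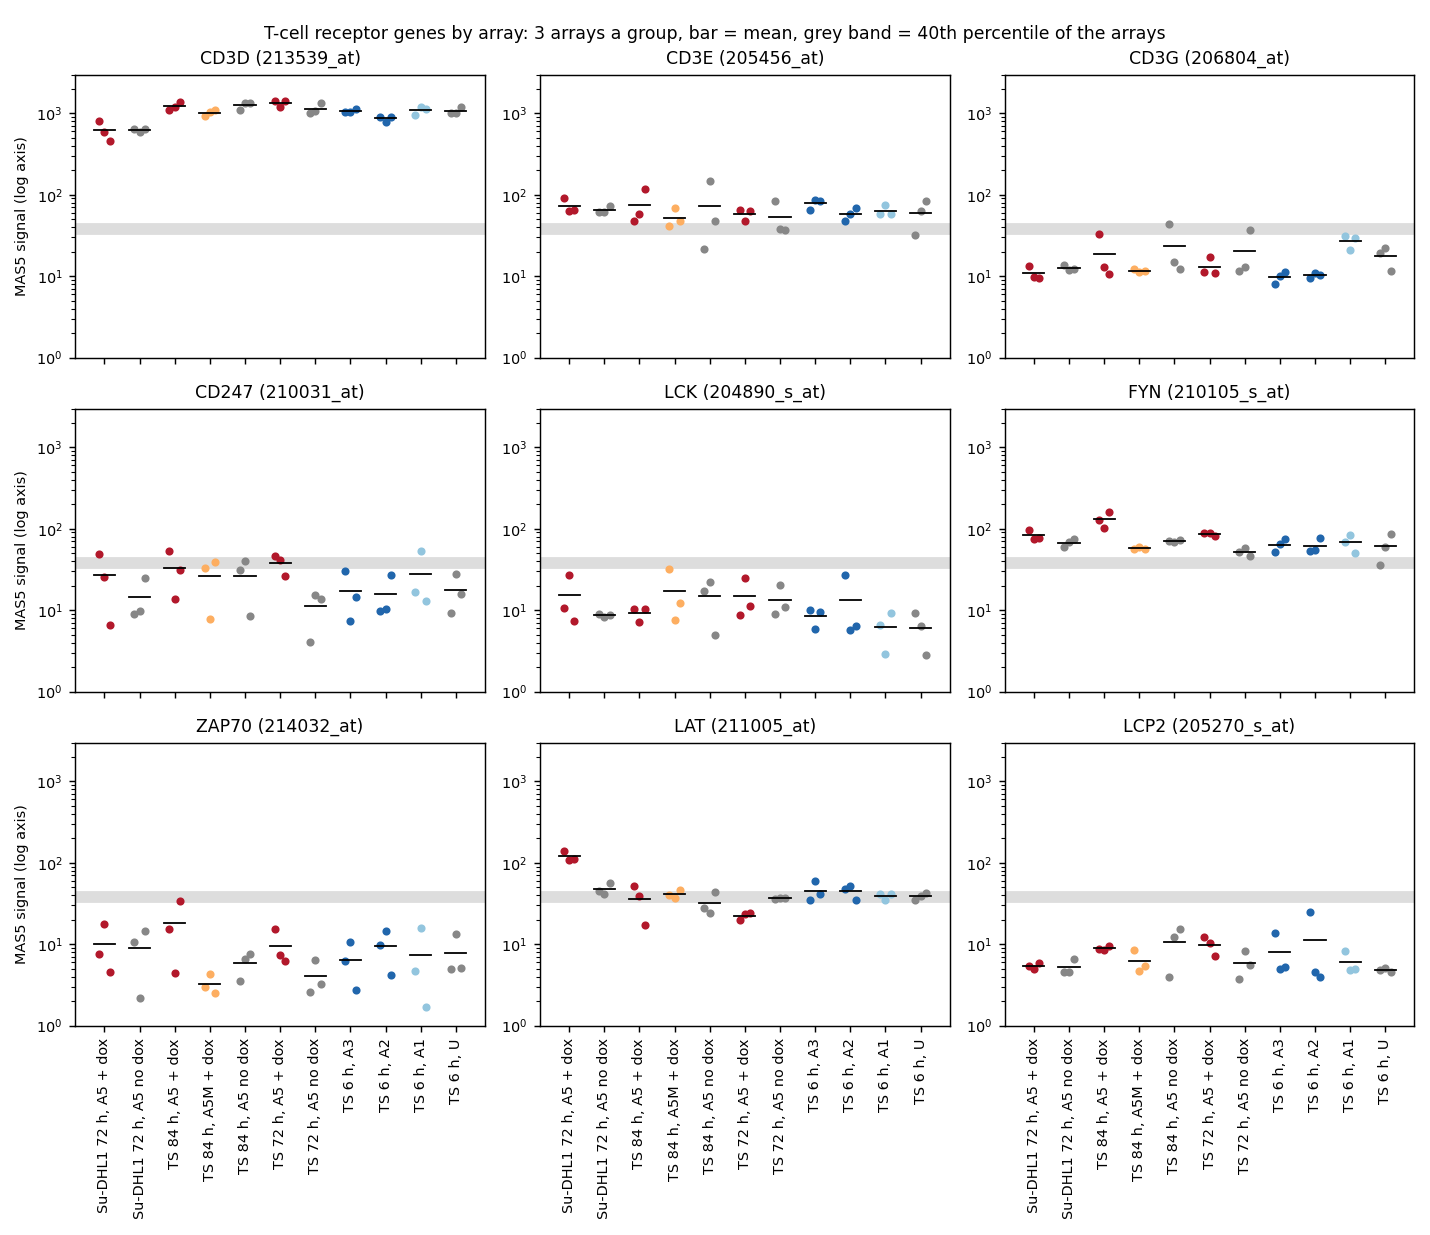
MAS5 signal (log axis) of the main probe set of each of the 9 genes on each of 33 arrays, in 11 groups of 3, with a bar at the mean and a grey band for the range of the arrays' 40th percentile. CD3D lies far above the band in every group, whereas LCK, ZAP70 and LCP2 lie below their array's percentile on every array.

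CD3D was not called in any comparison with the ALK hairpin. In Su-DHL1 cells its signal was 816.9, 597.9 and 463.3 induced and 639.6, 595.9 and 651.0 uninduced. In TS cells at 84 h it was 1100.9, 1188.8 and 1369.2 with A5 and doxycycline, 915.3, 1037.5 and 1101.5 with A5M and doxycycline, and 1107.2, 1342.9 and 1325.6 uninduced. At 72 h it was 1416.6, 1214.1 and 1401.7 in induced TS cells and 1016.1, 1063.5 and 1333.9 in uninduced TS cells. The induced and uninduced A5 arrays overlapped in all 3 settings. The average log2 fold change over the 3 settings was 0.05 ± 0.08 (SE; 95% interval -0.12 to 0.23; limma adjusted p = 0.647). In the A5M cells all 3 arrays were below all 3 uninduced A5 arrays, and the log2 fold change of A5M against uninduced cells was -0.30 ± 0.15 (limma adjusted p = 0.255). Non-overlap of 2 groups of 3 was found for 18.5% of the 9097 genes in this comparison, and 7% were called, with 0 of the 5 members called (1 at an unadjusted p below 0.05, CD3D).

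The lines differed in CD3D. Uninduced Su-DHL1 cells were below uninduced TS cells at 72 h on all 3 arrays (595.9 to 651.0 against 1016.1 to 1333.9), a log2 fold change of -0.84 ± 0.15 (limma adjusted p = 0.000157). CD3D was the only 1 of the 5 tested members called in this comparison, where 21.2% of 9097 genes were called (10.8% higher and 10.4% lower) and 39.1% did not overlap. It was called under all 10 other settings and with each of the 6 arrays left out.

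CD3E, the epsilon chain, was not called in any comparison. Its signal in TS cells at 84 h was 47.7, 57.7 and 118.5 induced, 41.0, 68.3 and 48.0 with A5M and 21.8, 148.6 and 47.1 uninduced. The 3 groups overlapped, and their spread was wide. The average log2 fold change with the hairpin was 0.19 ± 0.22 (95% interval -0.27 to 0.66; limma adjusted p = 0.51). The TS 84 h log2 fold change of 0.26 turned to -0.11 with the ACTB ratio as a covariate. Leaving out 1 array gave between -0.26 and 0.88, and without the second uninduced array CD3E was called (limma adjusted p = 0.0384).

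CD3G, the gamma chain, had 7.9 to 43.6 signal units. Without the filter on low values it was called lower with the inhibitors than with A1: 7.9, 10.0 and 11.1 with A3 and 9.6, 10.8 and 10.4 with A2, against 31.4, 21.1 and 29.4 with A1. The log2 fold change against A1 was -0.88 ± 0.19 with A3 (limma adjusted p = 0.00409) and -0.84 ± 0.19 with A2 (0.00572). All 12 of these arrays were below their 40th percentile, and the U arrays, at 19.2, 21.9 and 11.7, overlapped with those of A1. Against U the log2 fold change was -0.45 ± 0.19 with A3 (limma adjusted p = 0.116) and -0.41 ± 0.19 with A2 (0.156), neither called.

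CD247, the zeta chain, showed its widest separation in TS cells at 72 h. It was 45.7, 40.9 and 26.6 induced and 4.1, 15.4 and 13.9 uninduced, so the groups did not overlap, as for 49.8% of the 9097 genes in this comparison. The log2 fold change was 1.16 ± 0.47 (95% interval 0.18 to 2.13; limma adjusted p = 0.061), and it missed the threshold. In TS cells at 84 h the groups overlapped, with 53.1, 13.8 and 31.4 induced and 31.1, 39.7 and 8.5 uninduced. In Su-DHL1 cells they overlapped too, with 48.5, 25.5 and 6.6 induced and 9.1, 9.7 and 24.7 uninduced. The average over the settings was 0.62 ± 0.27 (limma adjusted p = 0.0636). With only the groups compared in the fit CD247 was called at 72 h (limma adjusted p = 0.0123), and the average was called in 4 of 18 fits that left out 1 array. Some of these left out the second induced or the second uninduced TS array at 84 h (0.73 and 0.71). Others left out the third induced or the third uninduced Su-DHL1 array (0.77 and 0.71). CD247 reached the percentile on 5 of the hairpin arrays and passed the filter partly through its higher groups. All its uninduced TS readings at 72 h, and the induced reading of 26.6, were below 33.3, the lowest percentile of the arrays. The p-values and calls of CD247 are therefore descriptions of values near background.

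Of the receptor-proximal kinases, FYN rose with the ALK hairpin in TS cells. At 84 h its main probe set read 129.5, 102.8 and 158.5 with A5 and doxycycline, 56.3, 59.1 and 56.8 with A5M and doxycycline, and 70.8, 69.7 and 72.3 in uninduced A5 cells. The 3 induced A5 arrays were above all 6 others. The log2 fold change was 0.77 ± 0.16 against uninduced cells (limma adjusted p = 0.000359) and 1.03 ± 0.16 against A5M (9.19e-06). Both comparisons share the induced arrays, and A5M itself was below uninduced A5 cells without overlap (-0.26 ± 0.16, limma adjusted p = 0.395). At 72 h FYN read 89.2, 89.4 and 80.7 induced and 51.6, 57.6 and 45.8 uninduced, again without overlap (0.64 ± 0.16, limma adjusted p = 0.0026). The difference between the times was 0.13 ± 0.22 (limma adjusted p = 0.905). In both TS comparisons CSF1R and NCR3 averaged higher and GATA3 lower in the induced cells, as given above, and their part in the FYN values was not tested.

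FYN was the only member called in each of these 3 comparisons. In TS cells at 84 h against uninduced cells 40.7% of genes were called (21.8% higher and 18.8% lower), and 45.7% did not overlap. Against A5M 43.3% were called (23.3% higher and 20% lower), and 48.6% did not overlap. At 72 h 34.2% were called, 19% higher and 15.2% lower. The median log2 fold change of the 5 members was 0.23, 0.26 and 0.25 in these comparisons, and that of all genes was 0.06, 0.06 and 0.07. The member medians are descriptions, since CD247 and LAT passed the filter partly through their higher groups.

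In Su-DHL1 cells FYN read 97.9, 75.4 and 77.9 induced and 60.3, 68.1 and 74.0 uninduced. The groups did not overlap, as for 39.8% of genes, and the log2 fold change of 0.27 ± 0.16 missed the threshold (95% interval -0.06 to 0.59; limma adjusted p = 0.25). The response in Su-DHL1 minus that in TS cells at 72 h was -0.37 ± 0.22 (95% interval -0.83 to 0.09; limma adjusted p = 0.52), so a line difference was not shown. Averaged over the 3 settings FYN rose by 0.56 ± 0.09 (limma adjusted p = 1.46e-05). It was the only member called in the average, in which 50.8% of genes were called, 29.1% higher and 21.7% lower.

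With the ACTB ratio as a covariate the FYN calls against uninduced cells were lost: 0.54 at 84 h (limma adjusted p = 0.178), 0.42 at 72 h (0.353) and 0.40 for the average (0.11). The call against A5M remained (0.82, limma adjusted p = 0.0232). The second FYN probe set, 216033_s_at, was not called for induced A5 against uninduced cells or A5M. Its log2 fold changes were 0.56 in TS cells at 84 h, 0.62 at 72 h and -0.11 in Su-DHL1 cells. In uninduced Su-DHL1 cells it was above uninduced TS cells at 72 h, 37.0, 57.7 and 36.6 against 8.0, 8.0 and 7.2 (1.53 ± 0.41, limma adjusted p = 0.00921). The main probe set was not called there (0.32 ± 0.16, limma adjusted p = 0.162). These TS readings of 216033_s_at were below the percentile, which it reached on 6 of the 21 hairpin arrays. Uninduced TS cells at 84 h read 13.1, 47.4 and 10.7 on it, which overlapped with the Su-DHL1 readings. The third, 212486_s_at, was below the percentile on every array. Names ending in _s_at mark probe sets that can match several transcripts.

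LCK, the kinase that acts first in resting T cells, read 2.8 to 32 on its brighter probe set and 3.3 to 11.3 on the other. ZAP70 read 1.7 to 34.1. Its highest group mean was that of induced TS cells at 84 h, with 15.4, 4.4 and 34.1, against 3.0, 4.3 and 2.5 with A5M and 3.5, 6.5 and 7.5 uninduced. Without the filter ZAP70 was called against A5M (0.89 ± 0.31, limma adjusted p = 0.0318), on values that were all below the percentile.

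**Figure D2:**
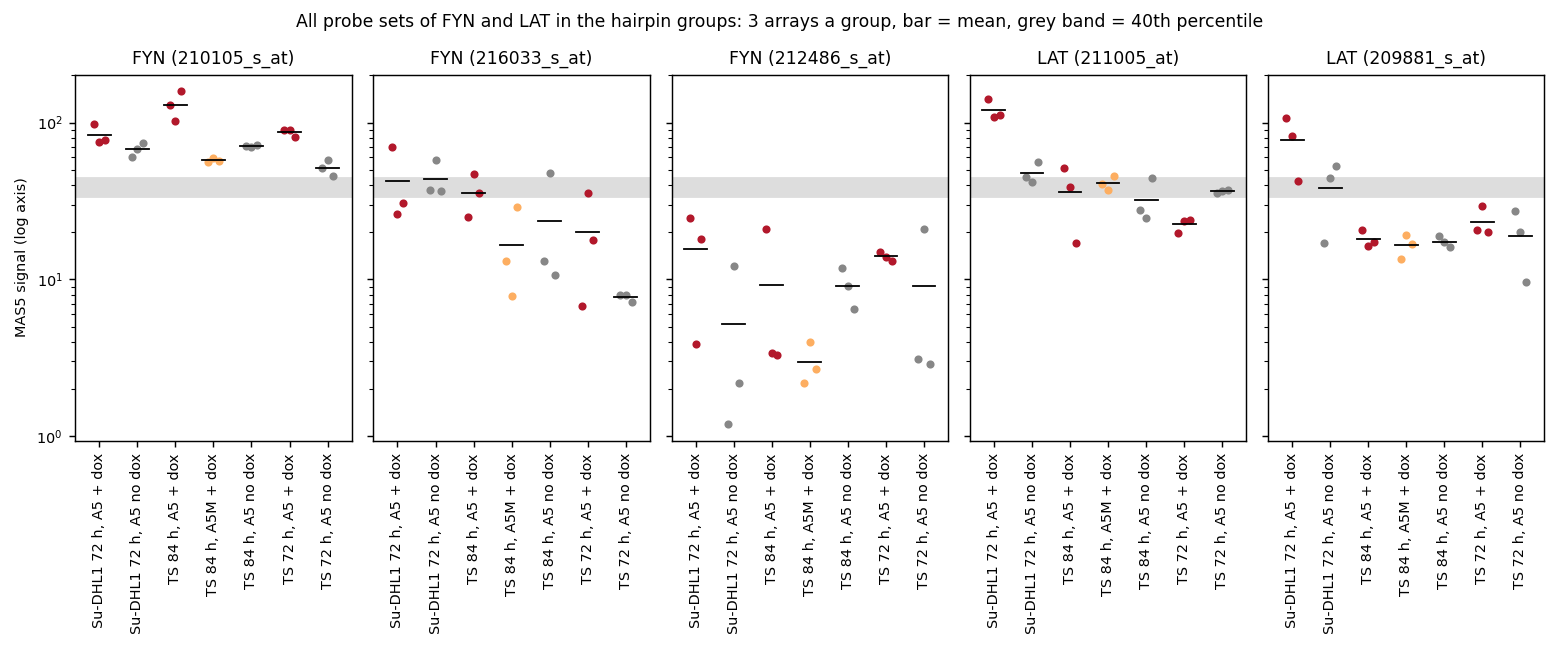
MAS5 signal (log axis) of all 3 FYN and both LAT probe sets in the 7 hairpin groups, 3 arrays a group, with a bar at the mean and a grey band for the arrays' 40th percentile. FYN 210105_s_at is highest in the induced TS cells at 84 h, and both LAT probe sets have their highest means in induced Su-DHL1 cells.

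LAT, the membrane scaffold, rose in Su-DHL1 cells. Its main probe set read 140.5, 108.6 and 111.6 induced and 45.2, 41.7 and 56.3 uninduced. All induced arrays were above all uninduced arrays, and the log2 fold change was 1.16 ± 0.25 (limma adjusted p = 0.00109). Of all genes 39.8% did not overlap in this comparison. LAT was the only member called in Su-DHL1 cells, where 24.6% of genes were called (13.9% higher and 10.7% lower), and the median log2 fold change was 0.27 over the 5 members and 0.08 over all genes. It was called under all 10 other settings and with each of 6 arrays left out (log2 fold change 1.05 to 1.26). The ACTB ratio averaged 1.36 induced and 1.39 uninduced. CSF1R and NCR3, given above, averaged higher in the induced cells, and their part in the LAT values was not tested.

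In TS cells LAT was not called. At 84 h it read 51.7, 39.0 and 17.1 with A5 and doxycycline, 40.7, 37.4 and 45.7 with A5M and 27.9, 24.5 and 44.0 uninduced, with overlap between the 3 groups. At 72 h it read 19.9, 23.6 and 23.9 induced and 35.8, 36.7 and 37.0 uninduced, lower without overlap (-0.51 ± 0.25; 95% interval -1.02 to 0.00; limma adjusted p = 0.12). Of all genes 49.8% did not overlap in this comparison. The induced readings were below 33.3, the lowest percentile of the arrays. The average over the 3 settings was 0.24 ± 0.14 (limma adjusted p = 0.168), and it was called without the third induced TS array at 84 h (0.35, limma adjusted p = 0.0203). Su-DHL1 minus TS, the 72 h responses differed by 1.67 ± 0.35 (95% interval 0.95 to 2.39; limma adjusted p = 0.0061), with 2.89% of genes called. LAT was the only 1 of the 5 members called there, and none was called for the difference between times in TS cells, where 1.28% of genes were.

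The second LAT probe set, 209881_s_at, read 107.1, 82.6 and 42.2 in induced and 17.0, 44.2 and 53.2 in uninduced Su-DHL1 cells. It pointed the same way, but the groups overlapped and the log2 fold change of 0.86 ± 0.33 missed the threshold (limma adjusted p = 0.0651). In TS cells at 72 h it read 20.8, 29.2 and 20.0 induced and 27.3, 20.1 and 9.6 uninduced, with overlap and with a log2 fold change of the opposite sign to the main probe set (0.23 ± 0.33, limma adjusted p = 0.665). Its line difference was 0.63 ± 0.46 (limma adjusted p = 0.666). The probe set 209881_s_at reached the percentile on 5 of the 21 hairpin arrays, all of Su-DHL1 cells. All its TS hairpin readings were below 33.3, the lowest percentile of the arrays. Its TS fold change and line difference are therefore descriptions of values near background. With the mean of both probe sets the line difference was 1.15 (limma adjusted p = 0.0636). LCP2, the partner adaptor of LAT, read 3.7 to 24.8 and 0.2 to 14.3 on its 2 probe sets.

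Ordered by mean log2 signal over the 11 groups, LAT was highest in induced Su-DHL1 cells and lowest in induced TS cells at 72 h, and these 2 ends did not overlap with their neighbours. FYN was highest in induced TS cells at 84 h, again apart from its neighbour, followed by induced TS cells at 72 h and induced Su-DHL1 cells, which overlapped. CD3D was lowest in the 2 Su-DHL1 groups. Of 10 neighbouring pairs, 8 overlapped for CD3D, for LAT and for FYN, and all 10 overlapped for each of the other 6 genes.

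The genes whose 11 group means correlated best with each tested member, among 8480 genes (8481 for CD247), were as follows, given as descriptions. For CD3D they were COG5 (r = 0.949), ALOX5AP (0.943) and MAGEA6 (0.937). For LAT they were FZD4 (0.903), DRC11 (0.891) and ZNF75D (0.871), and for FYN STK24 (0.958), LMNA (0.938) and MCFD2 (0.931). For CD3E they were COL5A1 (0.896), NR4A1 (0.895) and ACTB (0.874), and for CD247 PEX7 (0.875), CCL5 (0.863) and SHC1P1 (0.857). The points are means of groups that share a line and an experiment.

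After 6 h with the compounds only CD3D was called among the members. CD3D read 1032.9, 1030.8 and 1119.8 with A3, 911.2, 793.6 and 894.4 with A2, 951.5, 1189.5 and 1125.3 with A1 and 1012.8, 1024.1 and 1196.8 with U. The 3 A2 arrays were below all arrays of A1 and of U. CD3D was the only member called, lower with A2 than with A1 (-0.32 ± 0.11, limma adjusted p = 0.0379) and lower with A2 than with U (-0.31 ± 0.11, 0.0437), and these were the only calls. In A2 against A1 33.4% of 8587 genes were called (19.1% higher and 14.3% lower) and 44.6% did not overlap. In A2 against U 35.1% were called (19.8% higher and 15.4% lower) and 46.9% did not overlap. These 2 comparisons share the A2 arrays. The A2 against A1 call held without the first A1 array and was lost when any of the other 5 arrays was left out (limma adjusted p 0.0159 to 0.148), and the call against U held only without the first U array (0.0472 to 0.172). Both were lost with quantile normalization, with the ACTB ratio as a covariate, without the mean-variance trend and with only the groups compared in the fit.

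A3 and A2 were compared at the same dose and time. CD3D was 0.29 ± 0.11 higher with A3 than with A2 on the log2 scale (95% interval 0.05 to 0.53; limma adjusted p = 0.453, unadjusted p = 0.0211), without overlap, as for 15.2% of genes. The difference did not pass the threshold, and 0 of 4 members were called, with 0.151% of genes called. For the other tested members A3 minus A2 was 0.39 for CD3E (95% interval -0.14 to 0.92), 0.05 for FYN (-0.49 to 0.59) and 0.00 for LAT (-0.49 to 0.48). Against A1, CD3D with A3 was -0.03 ± 0.11 (limma adjusted p = 0.869), and 0 of 4 members were called, against 32.7% of genes (18.5% higher and 14.2% lower). Against U, 0 of 4 members were called with A3, where 33.7% of genes were called (0 members at an unadjusted p below 0.05). Between A1 and U, where 0.0349% of genes were called, the member log2 fold changes lay between 0.01 and 0.19.

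FYN read 52.2, 64.5 and 74.4 with A3, 52.7, 55.5 and 76.5 with A2, 68.9, 85.0 and 51.1 with A1 and 35.4, 60.2 and 87.1 with U. The groups overlapped, and the log2 fold change against A1 was -0.08 ± 0.26 with A3 and -0.12 ± 0.26 with A2. LAT read 35.0, 59.0 and 41.4 with A3, 47.8, 52.4 and 34.7 with A2, 41.2, 34.7 and 41.8 with A1 and 35.0, 38.6 and 42.1 with U. It was not called in any compound comparison. The summed signal of the 10 T-cell markers measured was 418.8 to 459.9 with A3 and 407.3 to 458.4 with A2, against 581.3 to 683.6 with A1 and 691.7 to 761.5 with U. The sum moved mainly through GATA3, a T-cell transcription factor, which averaged 87.2 with A3, 95.5 with A2, 256.8 with A1 and 323.7 with U. Of 8 T-cell markers tested 0 were called higher and 1 lower with each inhibitor against A1. Of all genes 14.2% were called lower there with A3 and 14.3% with A2. Against U 3 markers were called lower with A2, beside 15.4% of genes. With A3 against U 2 were called lower and 0 higher, beside 33.7% of genes called in either direction. The part of the sum and of GATA3 in the CD3D values was not tested.

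**Figure D3:**
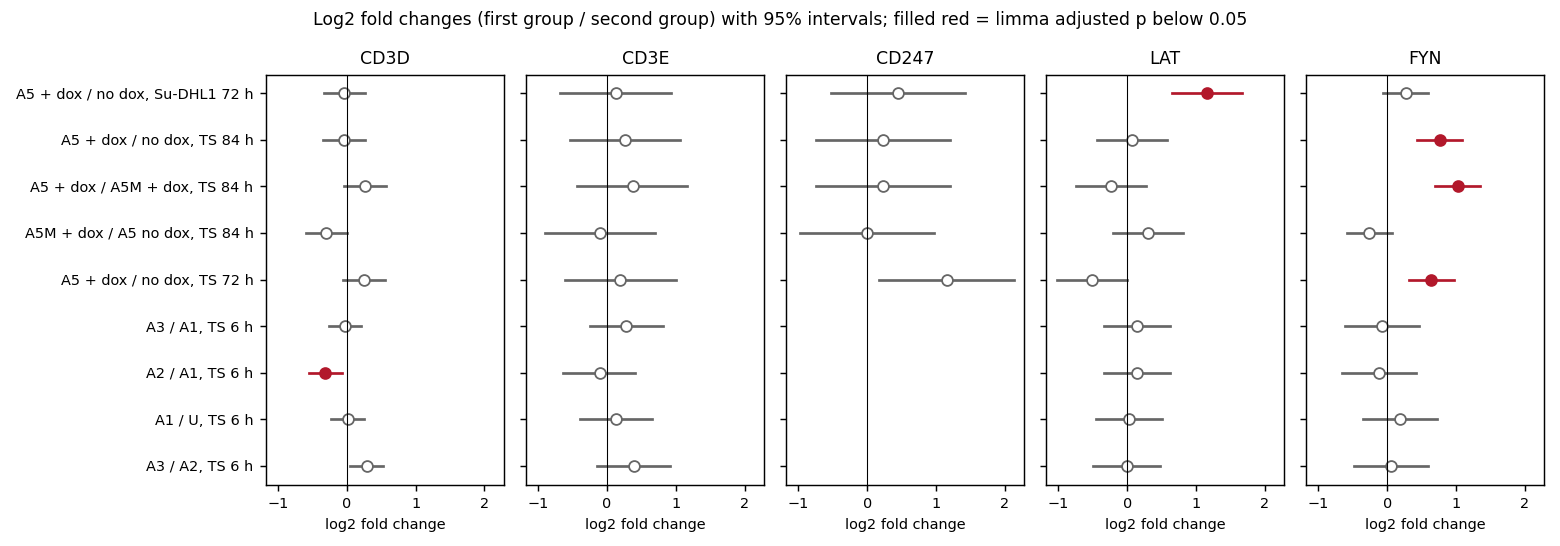
Log2 fold changes (first group over second) of the 5 tested members in 9 comparisons, with 95% intervals from limma, filled and red where the adjusted p was below 0.05. FYN was called in the TS comparisons with the induced hairpin, LAT in Su-DHL1 cells, and CD3D with A2 against A1.

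Genes further along the pathway were followed in 6 lists, whose counts stand beside 29.1% of all genes called higher and 21.7% called lower in the hairpin average. With the hairpin, on average over the 3 settings, the beta chain constant gene TRBC1 rose by 0.75 ± 0.10 (limma adjusted p = 1.24e-06), 1 of 2 tested genes of the list of receptor chains and assembly. It was 0.73 in Su-DHL1 cells, 0.72 in TS cells at 84 h and 0.82 at 72 h, each called. Of 7 coreceptors and accessory receptors tested, PTPRC (CD45), the phosphatase that activates SRC family kinases, alone was called, 0.76 ± 0.09 higher. Of 4 other SRC, SYK and TEC family kinases tested, FGR rose by 2.97 ± 0.16 in TS cells at 84 h and by 2.77 ± 0.16 at 72 h, whereas in Su-DHL1 cells its log2 fold change was 0.01 ± 0.16. Its line difference of -2.76 ± 0.22 was called (limma adjusted p = 4.24e-08). Of other SRC family kinases, LYN rose by 0.25 and YES1 fell by 0.36 on average, and both calls were lost with the ACTB ratio as a covariate, as were those of NCK2 and DOK2 given next.

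Among 14 adaptors and exchange factors tested, 3 rose and 1 fell on average, with a list median of 0.04 against 0.07 over all genes. SKAP2 rose by 0.64, VAV1, the exchange factor that acts with LCP2, by 0.37, and NCK2 by 0.28, and SH2D2A (TSAd), an LCK-binding adaptor, fell by 0.33. Of 18 tested genes of the calcium, PKC and NFAT arm 6 rose and 1 fell, with a median of 0.20, beside 29.1% of all genes higher and 21.7% lower. These included PPP3CA, a catalytic subunit of calcineurin (1.43 ± 0.10), ITPR1, an intracellular calcium channel (1.20 ± 0.07), PRKCA (1.15 ± 0.09) and STIM1, the calcium sensor of the endoplasmic reticulum (0.78 ± 0.12), each called in all 3 settings. With the ACTB ratio as a covariate STIM1 was no longer called in TS cells at 84 h or 72 h, and with the mean of its probe sets PRKCA was not called in Su-DHL1 cells. Of 14 negative regulators tested 8 rose and 2 fell, with a median of 0.29, beside the same shares of all genes. SLA, an adaptor that lowers receptor levels, rose by 1.11 ± 0.10, DGKZ, which removes diacylglycerol, by 0.93 ± 0.09 and CBLB, a ubiquitin ligase, by 0.81 ± 0.08. DOK2, a docking adaptor, was called in the average (0.66 ± 0.22) and, of the 3 settings, only in TS cells at 84 h (1.75 ± 0.38). In Su-DHL1 cells the log2 fold change of DOK2 was -0.32 and in TS cells at 72 h 0.53, neither called.

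**Figure D4:**
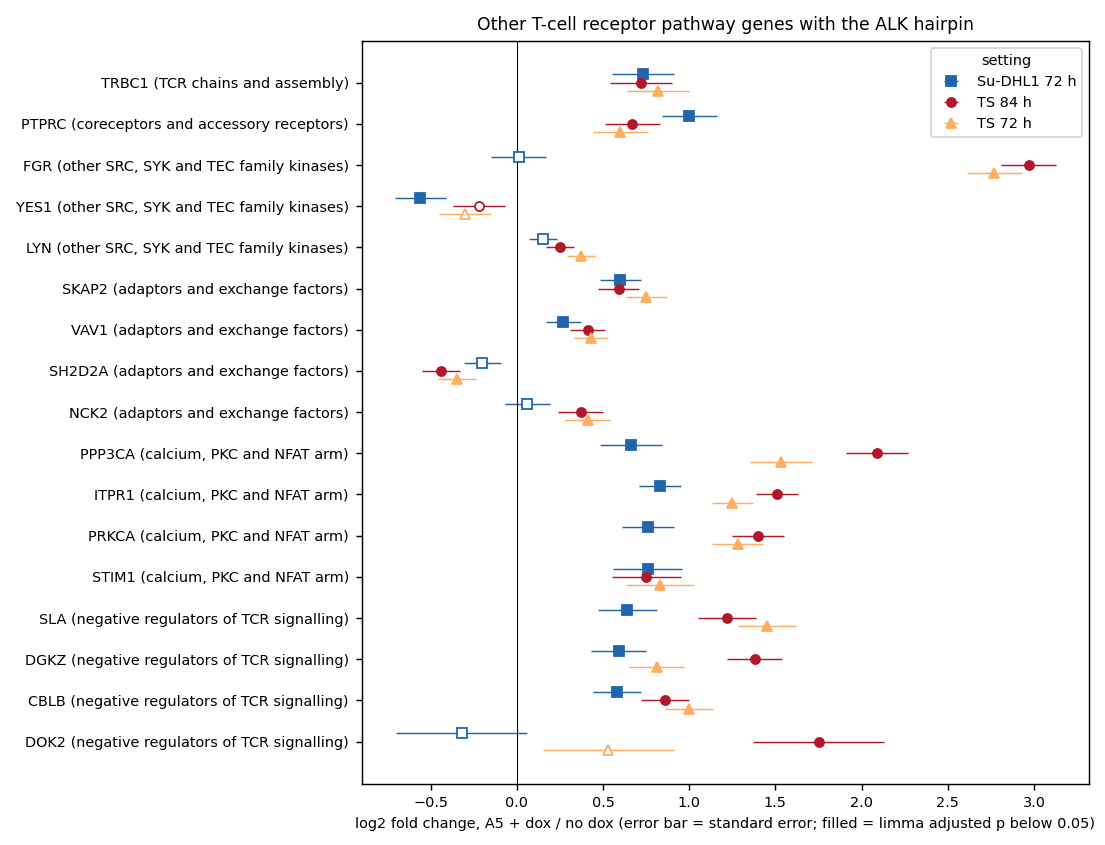
Log2 fold changes (induced A5 over uninduced cells, with standard errors from limma) of the pathway genes called in the average, in Su-DHL1 cells at 72 h and TS cells at 84 h and 72 h, filled where the adjusted p was below 0.05. FGR is near 0 in Su-DHL1 cells and near 3 in TS cells at 84 h.

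With the inhibitors, PTPN2, a phosphatase that acts on LCK and FYN, fell by 1.41 ± 0.14 with A3 and by 1.36 ± 0.14 with A2 relative to A1 (limma adjusted p = 9.36e-07 and 1.45e-06). CSK, the kinase that inactivates LCK and FYN, fell by 1.06 ± 0.18 with A3 and by 1.05 ± 0.18 with A2. SH2D2A fell by 1.28 with A3 and by 1.24 with A2, and YES1 by 0.83 with A3 and by 0.74 with A2. In the hairpin average PTPN2 fell by 0.46 ± 0.05. CBLB was higher with both compounds, by 0.76 ± 0.18 with A3 and 1.02 ± 0.18 with A2, and SLA was lower, -0.73 ± 0.21 with A3 and -0.57 ± 0.21 with A2. Of the negative regulators tested (12 in the compound fit), 1 rose and 4 fell with each compound against A1. Of all genes 18.5% were called higher and 14.2% lower with A3, and 19.1% higher and 14.3% lower with A2, and the next counts stand beside the same shares. VAV1 was lower with A3 (-0.43 ± 0.15) and with A2 (-0.57 ± 0.15), and 3 of 13 adaptors rose and 3 fell with each compound. Of the 18 calcium-arm genes 1 rose and 2 fell with A3, ITPR1 (-0.61 ± 0.12) and PPP3R1 (-0.67 ± 0.22), while 3 rose with A2, among them NFATC3 (0.56 ± 0.14) and PPP3CB (0.46 ± 0.17). VAV2 (0.83 ± 0.23) was higher with A3 than A1, SH3BP2 was lower with A3 (-0.80 ± 0.17) and A2 (-0.68 ± 0.17), and PTPRC was higher with A2 (0.49 ± 0.16). CD6, an accessory receptor, was called with A3 against A1 (0.70 ± 0.26), a call that held in 2 of 6 fits with 1 array left out. Against U its log2 fold change was -0.08 with A3 and -0.78 with A1, neither called. The calls of PPP3CB, SLA and PTPRC with A2 each held in 2 of 6 fits with 1 array left out too, and those of VAV1 and PPP3R1 with A3 in 3 of 6. Under 10 other settings the PPP3CB call held in 4. With the mean of its probe sets NFATC3 was no longer called with A3 or A2. With the ACTB ratio as a covariate the calls of VAV1, VAV2, SLA, PPP3R1, PPP3CB, PTPRC and CD6 with the compounds, of CBLB and NFATC3 with A3 and of SH3BP2 with A2 were lost. No difference between A3 and A2 was called for these named genes.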

How the data were processed

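The deposited unit is linear signal intensity, which the authors computed with MAS5, per the submitters' processing notes. For MAS5, no version was given in the sources used here. Each array's trimmed mean, with 2% left out at each end, lay between 200.06 and 200.08, so the arrays had been scaled to a common level, which cannot show a global change of RNA. The table held 22283 probe sets, and 68 control probe sets were left out. Gene names came from the platform annotation, in which 19065 probe sets had 1 symbol, 1043 several and 2107 none. Arrays give no depth, and their number limits the precision.

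Signals were taken to log2 after adding 11, so folds of low genes are understated. Probe sets entered a fit if 3 or more of its arrays read them at or above that array's 40th percentile, and 1 probe set a gene was used, that with the highest mean. The fits used limma 3.58.1 (R 4.3.3, eBayes with a mean-variance trend): 21 hairpin arrays (9097 genes) and 12 compound arrays (8587 genes). Two-sided p-values were adjusted over all genes (Benjamini-Hochberg), with calls below 0.05. The code was tested on simulated data. Replicate arrays correlated at 0.969 to 0.985 and no columns were identical.

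The 9 genes, the lists and the tests were chosen with earlier results of these data known. Besides the 9 genes and ALK, the text names from each of 6 pathway lists up to 4 called genes with the largest change in the hairpin average and up to 2 in A2 and in A3 against A1, and 3 genes of most like pattern per tested member. Marker genes of the lists and the chains FCER1G and TYROBP were named as checks. The alternatives tried were another pseudocount (32), other filters, quantile normalization, other uses of probe sets, other fits, covariates and leaving out each array.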

Additional observations from a re-analysis of the deposited data

Results flagged for a closer look

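The response of LAT to the ALK hairpin differed between the lines at 72 h. The log2 difference, Su-DHL1 minus TS, was 1.67 ± 0.35 by limma's test of the difference (adjusted p = 0.0061). By its main probe set LAT was higher in induced than in uninduced Su-DHL1 cells on 3 of 3 arrays. In TS cells it was lower in induced than in uninduced cells on 3 of 3 arrays. Of all genes 39.8% did not overlap in the Su-DHL1 comparison and 49.8% in the TS comparison. The TS fall was not called (limma adjusted p = 0.12). Its readings were 19.9 to 23.9 induced and 35.8 to 37.0 uninduced, and the percentile lay between 33.3 and 44.2. By the second probe set both pairs of groups overlapped, with log2 fold changes of 0.86 in Su-DHL1 cells and 0.23 in TS cells. The line difference was 0.63 (limma adjusted p = 0.666), and the TS readings of this probe set were below 33.3, the lowest percentile of the arrays. With the mean of both LAT probe sets the difference was 1.15 (limma adjusted p = 0.0636).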

How the results depend on the processing

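Counts of called members among the 15 comparisons were recomputed under 10 alternatives and with each array left out. Under the alternatives 129 counts did not move and 21 did. With the 60th percentile as filter FYN was no longer tested, and the count fell to 0 in TS cells at 84 h against uninduced cells, against A5M, at 72 h and in the average. With the ACTB ratio as a covariate it was 0 in TS cells at 84 h and 72 h against uninduced cells, in the average, and for A2 against A1 and against U. For A2 against A1 and against U it was also 0 with quantile normalization, without the mean-variance trend and with only the groups compared. With the mean of a gene's probe sets it was 0 for the line difference and 2 for uninduced Su-DHL1 against TS. Without the filter it was 2 for induced A5 against A5M, 2 for A2 against A1 and 1 for A3 against A1, through ZAP70 and CD3G. With only the groups compared it was 2 for TS at 72 h. The cause of the other changes was not tested. Leaving out 1 array gave 1 to 2 calls in TS cells at 84 h, 1 to 2 in the average and 0 to 1 for A2 against A1 and against U. Fold changes were recomputed for members with an unadjusted p below 0.05 or a call under any setting. CD3E in TS cells at 84 h reversed to -0.11, and LAT in the average to -0.02, with the ACTB covariate. With 1 array left out CD3E ranged from -0.26 to 0.88.

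No effect of pairing by replicate number was seen. Same-numbered arrays of different groups had deviations that correlated at -0.14 to 0.09 (63 pairs) and at -0.14 to 0.07 in the compound fit (18 pairs). Such correlations cannot show whether same-numbered arrays came from a shared culture. With the replicate block the count of called members was 1 in TS cells at 84 h, and the total of genes called there was 3665, against 3700 without the block. With the block 1 gene was called between A3 and A2, against 13. With the ACTB covariate 1901 genes were called in TS cells at 84 h, 1427 at 72 h (3108 without) and 2441 in the average (4622 without), 1354 for A2 against A1 (2871 without), 1452 for A3 against A1 (2805 without), 2400 against A5M (3942 without), 1070 between the uninduced lines (1928 without) and 91 for the line difference (263 without). With only the groups compared it was 415 for the line difference and 134 for A5M against uninduced cells (637 otherwise), and without the trend 76 for the time difference (116 otherwise). Over the settings A3 against A2 gave as few as 0 and A1 against U 0 to 10 calls (13 and 3 otherwise). Testing every probe set, of which there are more than genes, gave for example 7324 calls in the average.

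The called changes of the named pathway genes were refitted under the same settings, an addition chosen after the data had been seen. With other settings 868 fits kept the call and its direction and 70 lost the call, and with 1 array left out 729 kept it and 63 lost it. The SKAP2 change with A2 against A1 reversed, to -0.05 with the mean of its probe sets. Signals near background, as of LCK, ZAP70, LCP2 and CD3G, limit what can be read from these arrays.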
